A study of Mus musculus with 18 samples.

Results

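The phase II conjugation enzymes were followed in the kidney across all 6 groups of the study. They were chosen by symbol: the cytosolic glutathione S-transferases of the alpha, mu, theta, kappa, omega, pi and zeta classes (Gsta, Gstm, Gstt, Gstk, Gsto, Gstp and Gstz with a number), the microsomal glutathione S-transferases (Mgst), the UDP-glucuronosyltransferases (Ugt1a, Ugt2a, Ugt2b and Ugt3a) and the sulfotransferases (Sult). The rule itself reads symbols and no measured value, but the family was picked with earlier results of these data known. The rule found 61 genes among 19545 entries of the table. Of these, 41 reached 1 FPKM in at least 3 of the 18 libraries and are described below, among 12682 genes of the whole table that did so. FPKM scales the reads of a gene by its transcript length and by the mapped reads of the library.

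The 18 libraries came from kidneys of ICR mice, all 10 weeks old, with 3 libraries a group. Mice labelled control formed the control group, and the AOS group received AOS at a dose of 10 mg/kg, with nothing else named. Whether the controls had a vehicle is not given. Among mice that received STZ, the STZ group had nothing more in its label, and the STZ+AOS group also had AOS at that dose. A pair of groups had a transfer, labelled STZ+AOS10mg/kg-FMT (STZ+AOS-FMT below) and STZ+control-FMT. STZ is the common short form of streptozotocin, a toxin of the pancreatic beta cell, and FMT that of faecal microbiota transplantation. AOS is not spelled out in the labels, and the sources used here do not give the dose and route of STZ, the sex of the mice or the donors of the transfers. The labels do not say whether the 3 samples of a group are 3 mice, and p-values reflect only how far these samples spread, a spread that could be technical. In whole kidney, fewer cells of a type and less RNA per cell cannot be told apart.

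Phase II enzymes join a polar group to a drug, a steroid, bilirubin or a reactive by-product of metabolism, which makes it soluble and lets transporters carry it into urine or bile. Glutathione S-transferases attach glutathione to electrophiles, UDP-glucuronosyltransferases attach glucuronic acid or another sugar, and sulfotransferases attach sulfate from the donor PAPS. In the kidney many of these enzymes sit in the proximal tubule, where glutathione conjugates are also cut down to mercapturates. Many glutathione S-transferase genes are known targets of the transcription factor Nrf2 (Nfe2l2), and several Ugt1a genes of the aryl hydrocarbon receptor and nuclear receptors.

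Most described members lie in clusters of duplicated genes, which bears on what a value of a single member means. On mm10, with coordinates from GENCODE M21, the Ugt1a locus spans chr1:88055388-88220002 on the plus strand and holds 8 members, 7 of them described. Each Ugt1a gene has a first exon and promoter of its own, and all are spliced to the same later exons. The Ugt2 genes stand with 3 sulfotransferases in chr5:86889767-87591594 (13 members, 6 described), the mu class in chr3:107895821-108044894 (7 members, 6 described), and Gsta4, Gsta1 and Gsta2 in chr9:78182774-78355788. Of the 41 described members, 21 shared no 50-base window of their transcripts with another member, and 15 shared over 10% of their windows. The shared portion was 100% for Ugt1a6a, 80.7% for Ugt1a6b, 63.7% for Ugt1a2, 58.2% for Ugt1a1, 44.8% for Gsta2 (with Gsta1), 62.3% for Gstp1 (with Gstp2) and 37.4% for Ugt2b38. These portions depend on the transcript taken, the longest coding one of each gene. The transcript taken for Ugt1a7c (3302 bases) held every window of Ugt1a6a, so 100% does not mean that Ugt1a6a lacks a first exon of its own. The sources used here do not say how reads that match several genes were assigned, so the split between such neighbours is uncertain.

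The promoters of 4 neighbours in the Ugt1a locus are printed first, because 2 of these genes ranged widely between libraries and the other 2 did not. Each is the 250 bases before a RefSeq start site (GRCm38.p6), 5′ to 3′ on the plus strand, in which capitals would mark GCGTG or its reverse complement, the xenobiotic response element core bound by the aryl hydrocarbon receptor. Ugt1a2 lies after chr1:88200361-88200610, Ugt1a1 after chr1:88211709-88211958, Ugt1a10 after chr1:88055161-88055410 and Ugt1a7c after chr1:88094751-88095000.
Ugt1a2: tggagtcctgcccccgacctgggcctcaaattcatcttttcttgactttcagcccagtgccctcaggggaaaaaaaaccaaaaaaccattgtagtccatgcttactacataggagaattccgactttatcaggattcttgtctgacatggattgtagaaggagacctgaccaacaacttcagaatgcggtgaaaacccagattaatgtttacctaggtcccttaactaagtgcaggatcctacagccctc
Ugt1a1: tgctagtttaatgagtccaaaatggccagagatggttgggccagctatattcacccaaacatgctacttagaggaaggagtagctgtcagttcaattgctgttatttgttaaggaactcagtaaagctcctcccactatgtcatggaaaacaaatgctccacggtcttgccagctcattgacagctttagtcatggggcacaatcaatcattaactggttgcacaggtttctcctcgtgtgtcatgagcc
Ugt1a10: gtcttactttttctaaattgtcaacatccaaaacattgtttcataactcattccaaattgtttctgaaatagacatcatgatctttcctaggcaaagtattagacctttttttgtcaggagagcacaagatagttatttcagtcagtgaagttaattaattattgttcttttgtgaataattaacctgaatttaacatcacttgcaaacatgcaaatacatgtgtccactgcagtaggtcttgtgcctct
Ugt1a7c: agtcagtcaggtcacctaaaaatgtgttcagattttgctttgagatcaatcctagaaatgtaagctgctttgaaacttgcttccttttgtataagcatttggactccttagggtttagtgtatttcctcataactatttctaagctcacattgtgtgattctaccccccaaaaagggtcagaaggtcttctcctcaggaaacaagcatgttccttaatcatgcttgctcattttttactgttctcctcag
All 4 held 0 matches, so no letter is in capitals. Bases G and C made up 45.6% of the Ugt1a2 window, 44.8% of that of Ugt1a1, 38.8% of that of Ugt1a7c and 32.4% of that of Ugt1a10. Of 48 promoters of described members (250 bases before to 50 after the start), 12 held this core on either strand, against 32.4% of all 32851 promoters of the RefSeq table.

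Promoters of 3 glutathione S-transferases follow, 2 with and 1 without a match, and the capitals mark TGACNNNGC, the core of the antioxidant response element that Nrf2 binds, on either strand. The first bases of this core also begin sites of the AP-1 family. Gsta3 is read after chr1:21240335-21240584 (plus strand), Mgst1 after chr6:138140277-138140526 (plus strand, the first of 2 start sites) and Gsta2 after chr9:78347146-78347395 (minus strand).
Gsta3: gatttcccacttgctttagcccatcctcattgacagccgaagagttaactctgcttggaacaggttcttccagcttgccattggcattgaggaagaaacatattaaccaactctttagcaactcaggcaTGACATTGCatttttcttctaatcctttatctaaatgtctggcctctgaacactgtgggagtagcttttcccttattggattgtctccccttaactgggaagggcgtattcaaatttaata
Mgst1: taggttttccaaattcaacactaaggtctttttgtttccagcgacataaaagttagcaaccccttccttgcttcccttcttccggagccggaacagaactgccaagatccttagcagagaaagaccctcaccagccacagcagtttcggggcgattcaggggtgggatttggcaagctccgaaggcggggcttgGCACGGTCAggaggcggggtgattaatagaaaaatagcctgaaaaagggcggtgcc
Gsta2: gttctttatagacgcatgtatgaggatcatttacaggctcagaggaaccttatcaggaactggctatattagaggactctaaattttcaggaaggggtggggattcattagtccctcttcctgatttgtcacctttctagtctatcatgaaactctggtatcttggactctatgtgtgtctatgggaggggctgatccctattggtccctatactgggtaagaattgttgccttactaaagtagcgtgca
Gsta3 and this Mgst1 start held 1 match each, and Gsta2 held 0. Of the 48 promoters, 4 held the core (those of Gsta3, Gstm5, Gstm7 and Mgst1), and of all promoters 12.4% did. RefSeq promoters matched 37 of the 41 described members by symbol. A match is a run of letters and not a measured site, and 0 matches says only that the letters are not in this window.

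Several libraries stood apart before any comparison was made. Kap, an abundant androgen-regulated gene of the proximal tubule, read 150876, 145522 and 15798 FPKM in the 3 controls and 144830, 63552 and 14615 FPKM in the 3 STZ libraries. Control 3 was thus low beside its group and STZ 1 high beside its own. Cyp11b1, which the adrenal cortex expresses and the kidney does not, read 316, 14.3 and 276 FPKM in STZ+AOS, 118 FPKM in control 3, 5.13 FPKM in both STZ 2 and STZ 3, and 0.15 FPKM or less in the other 12 libraries. The summed level of 9 adrenal cortex markers ran from 126 to 2566 FPKM in STZ+AOS, from 3.66 to 929 in the controls, from 3.03 to 62.8 in STZ, and from 2.55 to 6.71 over the other 3 groups. Summed spermatid markers (5 genes) were 20.3 to 80.2 FPKM in control and STZ libraries and at most 0.59 FPKM in the other 4 groups. The sum of 13 proximal tubule markers was 7562 to 8766 FPKM in AOS, 4850.0 to 7365 in control, 4551 to 8907 in STZ, 3225 to 5035 in STZ+AOS, 6427 to 7036 in STZ+AOS-FMT and 5837 to 6694 in STZ+control-FMT. Summed hepatocyte markers (6 genes) stayed between 6.01 and 57.8 FPKM. Read totals were not used here, so the depth is unknown and no counting interval is given. A library held 11407 to 12607 genes at 1 FPKM or above.

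Together the 61 genes made up 0.721% to 1.12% of the summed FPKM of a library, with the lowest share in control 1 and the highest in STZ 3. Of the described members 15 had a median over 100 FPKM. The 5 highest medians were those of Ugt2b38 (990.4 FPKM), Gstm1 (683 FPKM), Gstp1 (645 FPKM), Ugt3a2 (539 FPKM) and Mgst3 (298 FPKM). Of the 41, 33 stayed at 1 FPKM or more in all 18 libraries. For 18 members the highest library was under 3 times the lowest, while 7 members ranged over 10 times or touched 0.

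The composition of the family shifted between libraries more than its total did. All glutathione S-transferases and microsomal ones together ran from 2070 FPKM (AOS 3) to 4751 FPKM (STZ 3), and all UDP-glucuronosyltransferases from 1144 FPKM (STZ+AOS 1) to 2834 FPKM (STZ 1). In control 1 the sums were 2156 FPKM for the former and 2501 FPKM for the latter, and in control 3 they were 4036 FPKM and 1749 FPKM. Control 3, STZ 3 and all 3 STZ+AOS libraries were the ones with the lowest sums of UDP-glucuronosyltransferases, each at 1765 FPKM or less where the other 13 were at 2020.1 FPKM or more. The ratio of Ugt2b38 to Gsta2 carried this contrast, from 69.1 in control 1 to 0.771 in STZ 3.

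**Figure D1:**
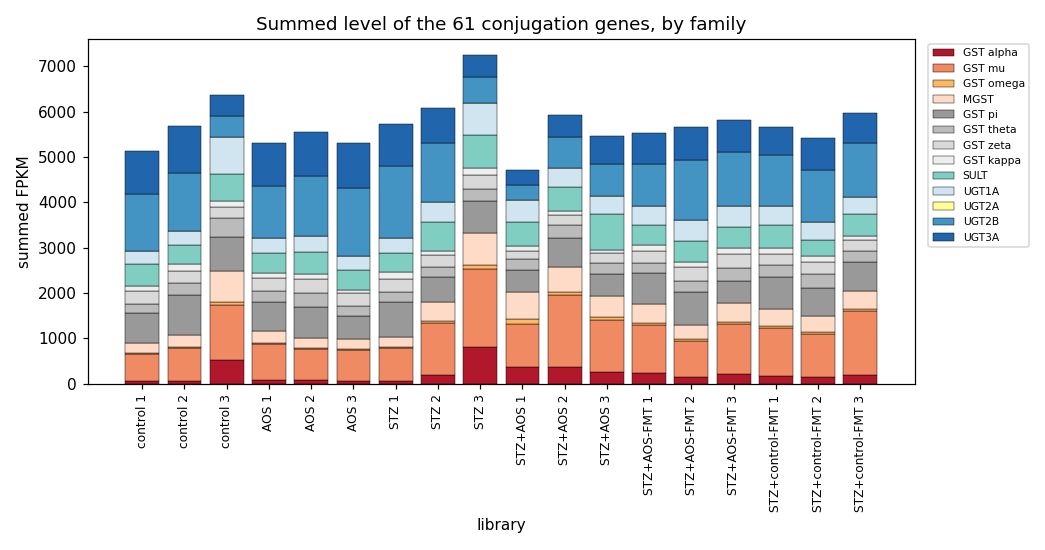
Stacked bars give the summed FPKM of the 61 conjugation genes in each of the 18 libraries, coloured by family. Glutathione S-transferases and microsomal ones sum to 4751 FPKM in STZ 3 and 4036 FPKM in control 3, the highest of the 18, while the Ugt2b and Ugt3a bands are shortest in STZ+AOS, control 3 and STZ 3.

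Members varied more between the samples of a group than the average gene did. The median standard deviation of log2(FPKM + 1) was 0.53 over the members against 0.22 over all genes tested in control, 0.51 against 0.20 in STZ, 0.31 against 0.21 in STZ+AOS and 0.18 against 0.092 in AOS. In the transfer groups it was 0.21 against 0.11 (STZ+AOS-FMT) and 0.20 against 0.11 (STZ+control-FMT). These are descriptions, with no test. Control 3 was the highest of the 3 controls for 30 of the 41 members (73.2%), and for 69.5% of all genes. STZ 1 was the lowest of its group for 30 members (73.2%), and for 62.7% of all genes.

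**Figure D2:**
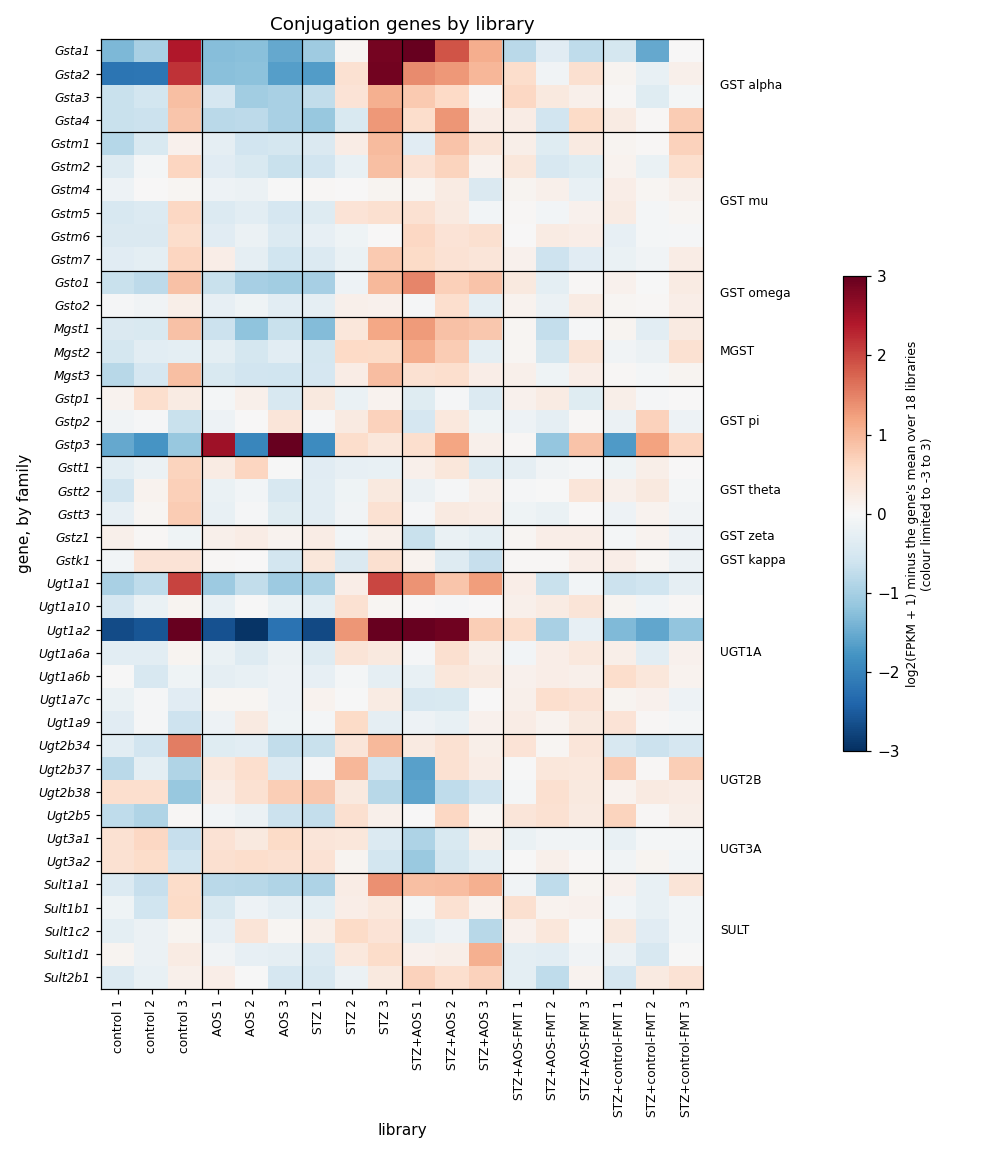
Each row is a described member, grouped by family, and each column a library. Colour is log2(FPKM + 1) minus the mean of that gene over the 18 libraries, limited to -3 to 3, so red is above and blue below the gene's own mean. Control 3, STZ 3 and the STZ+AOS libraries are red for Gsta1, Gsta2, Ugt1a1 and Ugt1a2, and blue or pale for Ugt2b38, Ugt3a1 and Ugt3a2.

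Among the alpha class, whose enzymes conjugate products of lipid peroxidation, Gsta2 and Gsta1 had the widest ranges. Gsta2 (chr9:78331018-78355788, minus strand) was at 17.04, 17.11 and 368 FPKM in control, at 33.25, 34.0 and 24.9 FPKM in AOS, and at 24.8, 112 and 608 FPKM in STZ. It was at 217, 201 and 161 FPKM in STZ+AOS, at 118, 75.1 and 112 FPKM in STZ+AOS-FMT and at 86.3, 69.5 and 89.8 FPKM in STZ+control-FMT. The STZ and control samples overlapped, whereas every AOS library lay below every STZ+AOS and transfer library. Gsta2 made up 24.3% of the alpha class in control 2 and 74.7% in STZ 3. Gsta1, its close neighbour on chromosome 9, was at 0.15, 0.49 and 14.4 FPKM in control, 0.38, 2.04 and 20.3 FPKM in STZ, and 23.6, 9.83 and 5.23 FPKM in STZ+AOS. It stayed at 1.93 FPKM or less in the AOS and transfer libraries and was listed at 0 in AOS 3 and STZ+control-FMT 2. Gsta1 stood at 0% to 10.9% of the level of Gsta2 in the same library, the highest share being that of STZ+AOS 1.

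Gsta3 and Gsta4, the latter known for conjugating hydroxynonenal, moved over narrower ranges. Gsta3 was at 26.7, 29.1 and 81.4 FPKM in control, 30.1, 20.3 and 21.6 FPKM in AOS, 25.6, 57.8 and 91.1 FPKM in STZ, and 74.5, 65.4 and 44.2 FPKM in STZ+AOS. Gsta4 was at 23.3, 23.7 and 67.55 FPKM in control, 20.96, 21.4 and 18.7 FPKM in AOS, 16.45, 27.0 and 94.1 FPKM in STZ, and 54.35, 94.9 and 44.1 FPKM in STZ+AOS. For all 4 alpha genes control 3 was the highest control and STZ 3 the highest STZ library. In the transfer groups Gsta3 lay between 33.3 and 66.4 FPKM and Gsta4 between 25.0 and 64.7 FPKM.

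The mu class summed to 583 to 1717 FPKM, most of it from Gstm1, and the pi class to 476 to 886 FPKM, above the mu class in control 1, control 2, AOS 2 and STZ 1. Gstm1 was at 358, 476 and 719 FPKM in control, 545, 437 and 456 FPKM in AOS, 486, 757 and 1263 FPKM in STZ, and 516, 1188 and 847 FPKM in STZ+AOS. AOS and STZ+AOS overlapped, at 516 against 545 FPKM. Gstm5 ranged from 168 FPKM (AOS 3) to 371 FPKM (control 3) and Gstm2 from 32.5 FPKM (AOS 3) to 99.2 FPKM (STZ 3). Gstm4 was at 6.77 to 11.5 FPKM. Gstm7 lay between 4.24 and 12.7 FPKM. Gstm6 was near the filter: it reached 1 FPKM in 6 libraries, with 1.92, 1.52 and 1.62 FPKM in STZ+AOS, 1.72 FPKM in control 3 and 0.59, 0.73 and 0.90 FPKM in STZ.

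Gsto1 (chr19:47854970-47864790, plus strand), an omega-class enzyme that reduces dehydroascorbate and other substrates, was at 27.4, 25.0 and 82.0 FPKM in control and 27.3, 21.6 and 20.97 FPKM in AOS. It was at 21.6, 39.5 and 87.6 FPKM in STZ, and at 122, 72.65 and 80.3 FPKM in STZ+AOS. The transfer groups lay between 35.5 and 54.2 FPKM, below every STZ+AOS library and above every AOS library. Its neighbour Gsto2 was at 0.43 to 1.52 FPKM and reached 1 FPKM in 4 libraries.

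Of the microsomal enzymes, Mgst1 (chr6:138140316-138156755, plus strand), an enzyme of the endoplasmic reticulum and the outer mitochondrial membrane, was at 56.3, 55.8 and 142 FPKM in control, 48.85, 32.5 and 47.6 FPKM in AOS, 30.7, 97.4 and 171 FPKM in STZ, and 186, 142 and 135 FPKM in STZ+AOS. Mgst3 was at 161, 200.5 and 536 FPKM in control, 209, 192 and 189 FPKM in AOS, 201, 334 and 541 FPKM in STZ, and 390.3, 406 and 327 FPKM in STZ+AOS. For both genes the 3 AOS libraries lay under all STZ+AOS libraries, and control 3 and STZ 3 were among the highest. In the transfer groups Mgst1 was at 46.5 to 92.9 FPKM and Mgst3 at 261 to 327 FPKM. Mgst2, which can make leukotriene C, did not exceed 2.06 FPKM and was listed at 0 in 4 libraries (control 1, AOS 2, STZ 1 and STZ+AOS-FMT 2).

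The remaining cytosolic classes were steadier. Gstp1, the main pi-class enzyme, ranged from 447 FPKM (AOS 3) to 880.0 FPKM (control 2) and Gstp2 from 2.73 to 8.58 FPKM. Gstp3 was an exception: it was at 34.5, 0.55 and 54.5 FPKM in the 3 AOS libraries and between 0.63 and 12.9 FPKM in the others. The AOS group therefore held both the highest and the lowest Gstp3 values of the study. Among the theta class Gstt1 ran from 77.9 to 162 FPKM, Gstt2 from 75.4 to 183 FPKM and Gstt3 from 30.4 to 68.2 FPKM, each highest in control 3. Gstk1, a mitochondrial and peroxisomal enzyme, ran from 70.1 to 159 FPKM. Gstz1 (chr12:87147165-87164723, plus strand), the maleylacetoacetate isomerase of tyrosine breakdown, had levels of 165, 226 and 215 FPKM in STZ+AOS and between 234 and 306 FPKM in the other 15 libraries. All 3 STZ+AOS libraries thus lay below all others for Gstz1.

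In the Ugt1a locus, 2 genes at one end ranged widely while the other 5 described genes did not. Ugt1a2 (chr1:88200601-88218997) was at 0.29, 0.40 and 486 FPKM in control, at 0.36, 0.070 and 0.78 FPKM in AOS, and at 0.26, 19.8 and 333 FPKM in STZ. It was at 163, 61.55 and 12.9 FPKM in STZ+AOS, at 10.85, 3.19 and 5.93 FPKM in STZ+AOS-FMT and at 2.31, 1.82 and 2.62 FPKM in STZ+control-FMT. Every library of STZ+AOS lay above every AOS and transfer library, yet the highest value of the study was in a control library and STZ 1, at 0.26 FPKM, held the second lowest value. The highest value was 6944 times the lowest, the widest range of any member listed above 0 throughout. Ugt1a1, the enzyme that conjugates bilirubin, was at 0.35, 0.57 and 9.83 FPKM in control, 0.25, 0.59 and 0.25 FPKM in AOS, 0.37, 2.04 and 9.52 FPKM in STZ, and 5.69, 3.74 and 5.28 FPKM in STZ+AOS. It stayed between 0.65 and 2.02 FPKM in the transfer libraries.

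The other genes of the locus (Ugt1a10, Ugt1a9, Ugt1a7c, Ugt1a6b and Ugt1a6a, and Ugt1a5, which did not pass the filter) had a summed level of 294 to 459 FPKM over all 18 libraries. Ugt1a10 lay between 110.3 and 213 FPKM, Ugt1a7c between 76.9 and 152 FPKM and Ugt1a6b between 53.5 and 108 FPKM. Ugt1a6a ran from 8.04 to 15.7 FPKM and Ugt1a9 from 6.34 to 15.9 FPKM. The share of Ugt1a2 in the summed level of the locus went from 0.0199% (AOS 2) to 58.3% (control 3), and was 46.5% in STZ 3 and 33.5% in STZ+AOS 1. Cyp11b1 was highest in control 3, STZ 2, STZ 3 and all STZ+AOS libraries. The same libraries had the highest Ugt1a2, at 12.9 FPKM or more against 10.85 FPKM or less elsewhere. Within them the order differed. STZ 3 had its high share with Cyp11b1 at 5.13 FPKM, and STZ+AOS 3, with Cyp11b1 at 276 FPKM, had a share of 3.25%. The part of adrenal tissue in the Ugt1a2 levels was not tested. The promoters printed above belong to Ugt1a2 and Ugt1a1 on the one side and Ugt1a10 and Ugt1a7c on the other.

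**Figure D3:**
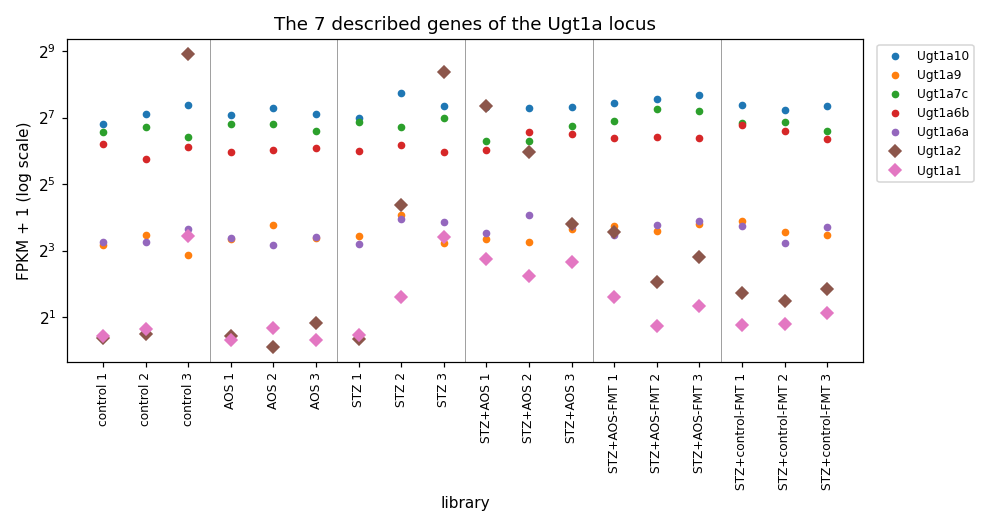
Points give FPKM + 1 on a log scale for the 7 described genes of the Ugt1a locus in each library. Diamonds mark Ugt1a2 and Ugt1a1, which differ widely between libraries, and circles mark the other 5 genes, which stay within narrow bands.

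Of the Ugt2b genes, whose enzymes conjugate steroids and many drugs, Ugt2b38 had the highest level of any member. The gene lies at chr5:87409942-87424203 on the minus strand. It was at 1178, 1171 and 377 FPKM in control, at 973, 1138 and 1389 FPKM in AOS, and at 1450.1, 1021 and 468 FPKM in STZ. It was at 274, 490.2 and 552 FPKM in STZ+AOS, at 798, 1159 and 1021 FPKM in STZ+AOS-FMT and at 897, 1008 and 970.4 FPKM in STZ+control-FMT. The 3 libraries of STZ+AOS, control 3 and STZ 3 lay at 552 FPKM or less, and all others at 798 FPKM or more. Ugt2b37 ran from 41.2 FPKM (STZ+AOS 1) to 258 FPKM (STZ 2), Ugt2b5 from 2.72 to 10.1 FPKM and Ugt2b34 from 1.59 to 11.5 FPKM.

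Both Ugt3a genes, whose human counterparts use sugars other than glucuronic acid, shared part of the pattern of Ugt2b38. Ugt3a2 (chr15:9335550-9370955, plus strand) was at 709, 763 and 344 FPKM in control, 721, 741 and 726 FPKM in AOS, 702, 546 and 350.4 FPKM in STZ, and 239, 359.6 and 424 FPKM in STZ+AOS. Ugt3a1 was at 241, 269.9 and 108 FPKM in control, 238, 214 and 261 FPKM in AOS, 227, 220.5 and 131 FPKM in STZ, and 91.75, 127 and 197 FPKM in STZ+AOS. As for Ugt2b38, both were lowest in STZ+AOS 1, and control 3 and STZ 3 were the lowest of their groups. In the transfer groups Ugt3a2 was at 480 to 573 FPKM and Ugt3a1 at 149 to 169 FPKM, below every AOS library. Ugt2b38, in contrast, overlapped between AOS and the transfer groups. Ugt3a1 in STZ+AOS 3 also lay above every transfer library. The ratio of Ugt3a2 to Ugt3a1 moved little, from 2.15 to 3.53.

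Of 16 sulfotransferases 5 passed the filter. Sult1a1 (chr7:126672865-126676432, minus strand), which sulfates phenols, was at 14.5, 11.6 and 29.1 FPKM in control, 10.6, 10.4 and 9.98 FPKM in AOS, 9.83, 22.9 and 52.0 FPKM in STZ, and 37.5, 37.6 and 42.0 FPKM in STZ+AOS. It was at 11.01 to 25.9 FPKM in the transfer groups, so STZ+AOS lay above them without overlap. Sult1d1, which sulfates catecholamines, ran from 222 to 452 FPKM in 17 libraries and stood at 642 FPKM in STZ+AOS 3. Sult1c2 had levels of 182, 239.8 and 211 FPKM in STZ and 130.3, 144 and 89.9 FPKM in STZ+AOS, with 130.3, 141.5 and 170 FPKM in control. Sult1b1 ran from 1.99 to 5.81 FPKM. Sult2b1, which sulfates cholesterol, had levels of 2.17, 1.76 and 2.15 FPKM in STZ+AOS and 1.66 FPKM or less elsewhere.

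The 20 members under the filter were 11 sulfotransferases (Sult1c1, Sult1e1, Sult2a1, Sult2a3, Sult2a8, Sult3a1, Sult3a2, Sult4a1, Sult5a1, Sult6b1 and Sult6b2), all 3 Ugt2a genes, Ugt2b1, Ugt2b35, Ugt2b36, Ugt1a5, Gstm3 and Gstt4. Of them 8 did not exceed 0.15 FPKM in any library. Just outside the filter were Sult5a1, at 1 FPKM or more in 2 libraries with a highest value of 1.55 FPKM, and Sult4a1, in 1 library with 1.93 FPKM. Just inside were Mgst2 and Gsto2, in 4 libraries each, with highest values of 2.06 and 1.52 FPKM.

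The comparisons below were fitted with limma on log2(FPKM + 1) over all 12682 genes at once. A log2 difference is given ± its standard error, p-values were adjusted over the whole table (Benjamini-Hochberg), and a gene is called at an adjusted p under 0.05. The scale understates changes of genes near 0.

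STZ+AOS against AOS, the comparison of AOS-treated mice with and without STZ, held most of the calls. Of the 41 members 18 were called (43.9%), 14 higher and 4 lower in STZ+AOS, where 46.5% of all genes were called (39.3% higher and 7.18% lower). At an unadjusted p under 0.05 there were 24 members (58.5%) and 56.6% of all genes. The share of members called was thus near the background. The median difference over the members was 0.47 and that over all genes 0.29. Groups did not overlap for 21 members higher and 4 lower in STZ+AOS, against 49.7% and 9.75% of all genes (59.4% in either direction).

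The glutathione S-transferases gave 9 of the 14 calls upward. Gsta1 rose by 3.39 ± 0.96 (adjusted p = 0.0141), Gsta4 by 1.54 ± 0.54 (0.0310) and Gsta3 by 1.31 ± 0.42 (0.0229). Gsta2 was higher by 2.61 with an adjusted p of 0.0502 and was not called, although its groups did not overlap. Gsto1 rose by 1.91 ± 0.44 (adjusted p = 0.00783) and Mgst1 by 1.83 ± 0.48 (0.0112). Smaller rises were called for Mgst3 (0.92 ± 0.36), Mgst2 (0.90 ± 0.35), Gstm2 (0.89 ± 0.35) and Gstm6 (0.83 ± 0.21), with adjusted p-values of 0.0495, 0.0488, 0.0471 and 0.00904. Mgst2 was near 0, at 0.17, 0 and 0.16 FPKM in AOS and 2.06, 1.45 and 0.18 FPKM in STZ+AOS. STZ+AOS 3 was thus close to the AOS libraries, and the Mgst2 call held in 4 of 17 alternatives. Gstm1, the highest of the mu class, was higher by 0.75 with an adjusted p of 0.0922. Gstz1 fell by 0.54 on the log2 scale (SE 0.12, adjusted p = 0.00726), the lowest adjusted p of any member. The pi, theta and kappa classes held no call.

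Calls went in both directions among the UDP-glucuronosyltransferases. Ugt1a2 rose by 5.25 ± 2.00 (adjusted p = 0.0440) and Ugt1a1 by 2.11 ± 0.70 (0.0259), and the other 5 Ugt1a genes were not called. Ugt2b38 fell by 1.46 on the log2 scale (SE 0.43, adjusted p = 0.0168), Ugt3a2 by 1.14 (SE 0.28, 0.00918) and Ugt3a1 by 0.84 (SE 0.31, 0.0397). Among the sulfotransferases Sult1a1 rose by 1.82 ± 0.43 (adjusted p = 0.00815), Sult2b1 by 0.73 ± 0.29 (0.0484) and Sult1d1 by 0.66 ± 0.25 (0.0427).

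**Figure D4:**
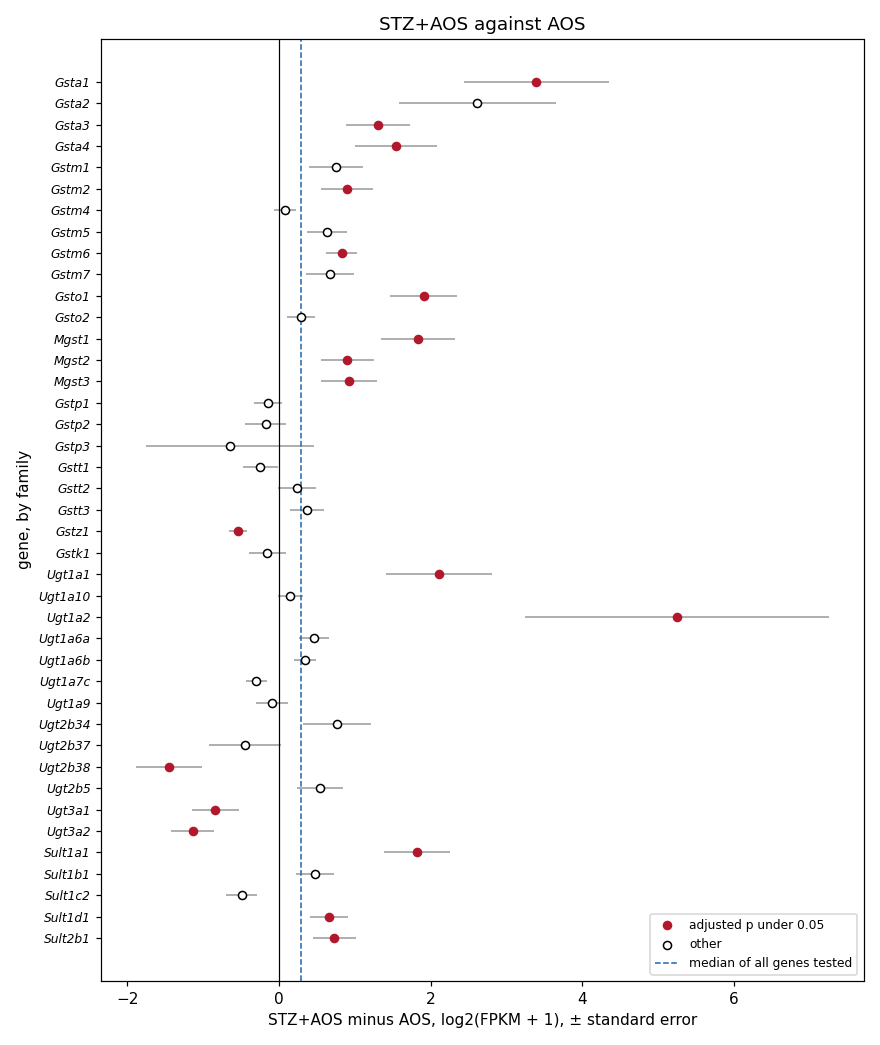
Points give the difference STZ+AOS minus AOS in log2(FPKM + 1) for the 41 described members, with bars of 1 standard error from limma, and filled points are called. The dashed line is the median of all genes tested (0.29), and Ugt1a2 and Gsta1 lie farthest to its right, Ugt2b38 and Ugt3a2 farthest to its left.

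Of these calls 6 (Mgst1, Sult1a1, Gsto1, Gstz1, Gstm6 and Ugt3a2) held with any single library left out. The count of 18 became 11 without AOS 1, 8 without AOS 2, 7 without AOS 3, 9 without STZ+AOS 1 and 11 without STZ+AOS 2. Without STZ+AOS 1 the adjusted p was 0.0573 for Gsta1, 0.0733 for Ugt2b38, 0.138 for Ugt1a2 and 0.169 for Ugt3a1, and without STZ+AOS 2 it was 0.106 for Gsta4. Adrenal markers moved with this contrast: all 9 were called higher in STZ+AOS, 7 of 13 proximal tubule markers were called lower and all 9 tubular injury genes tested were called higher. Markers of some other cells were called higher too: 5 of 5 for chromaffin cells, 4 of 4 for endothelium, 4 of 4 for podocytes and 3 of 4 for fibroblasts. Of collecting duct markers 2 of 6 were called higher, of adipocyte markers 1 of 4, and of macrophage markers 2 of 4, with 1 lower. For the thick ascending limb, distal tubule, hepatocyte, erythroid and spermatid lists 0 markers were called. Of all genes 39.3% were called higher and 7.18% lower. The part of these cells in the members' differences was not tested. With log2(Cyp11b1 + 1) as a covariate 0 members, and 0 of all genes, were called, and Ugt1a2 stood at -1.47, Ugt1a1 at -0.39, Mgst3 at -0.26 and Gsta2 at -0.91. Leaving out the 3 libraries above 100 FPKM of Cyp11b1 leaves STZ+AOS 2 alone in its group, with the spread taken from the other groups and assumed to hold for it. In that fit 3 members and 5.88% of all genes were called (Gstm6, Ugt3a2 and Ugt3a1), and the differences of Mgst1 (1.73), Sult1a1 (1.77), Gsto1 (1.61), Gsta1 (3.26), Gsta4 (2.17) and Ugt1a2 (5.51) had adjusted p-values of 0.0586 to 0.0837. Within these libraries the adrenal markers and the group cannot be told apart. The split of 14 higher and 4 lower was 6 and 3 after quantile normalization and 7 and 7 after median-of-ratios rescaling, which moved the median of all genes from 0.29 to -0.030 and -0.0097. Under these scalings the alpha, mu, omega and microsomal medians stayed above 0 and those of Ugt3a, Gstz1 and the pi class below 0, while the medians of the theta class and of Ugt1a (by median-of-ratios) and of Ugt2b (by both) changed sign.

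**Figure D5:**
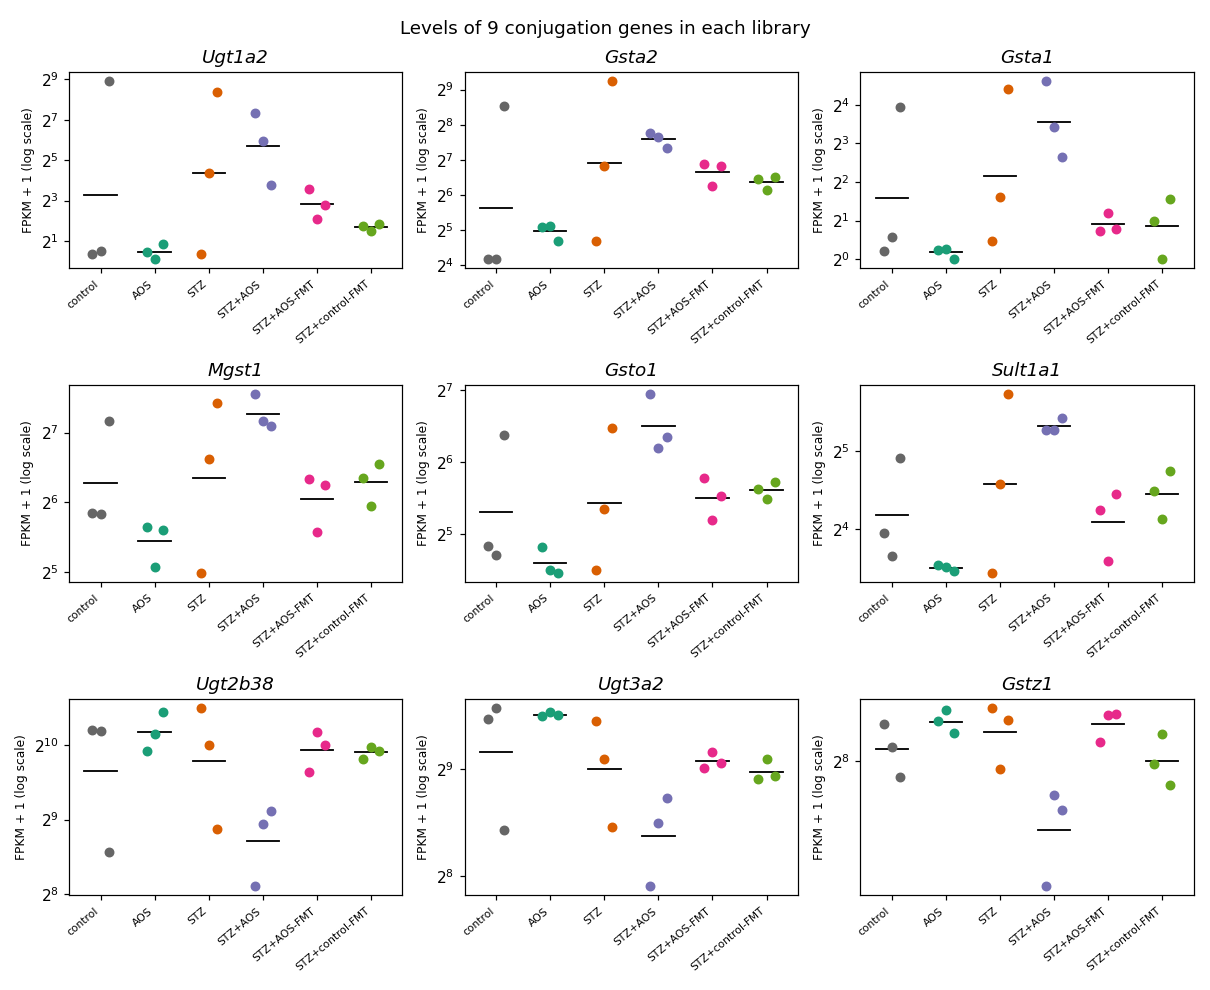
Points give FPKM + 1 on a log scale for 9 members in each library, by group, and lines give the group mean of log2(FPKM + 1). The control and STZ points span a wider range than the AOS points in each of the 9 panels, and AOS and STZ+AOS do not overlap in any of them.

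STZ+AOS against STZ compared mice given STZ with and without AOS. There were 2 called members, both lower in STZ+AOS: Gstz1 fell by 0.49 on the log2 scale (SE 0.12, limma adjusted p = 0.0473) and Sult1c2 by 0.81 (SE 0.20, adjusted p = 0.0478). They are 4.88% of the members, against 4.53% of all genes called (1.1% lower). At an unadjusted p under 0.05 there were 8 members, and 33.1% of all genes. For both genes the 3 STZ+AOS libraries lay under the 3 STZ libraries. Gstm6 came next, higher by 0.63 with an adjusted p of 0.0697. Groups did not overlap for 2 members higher (Gstm6 and Sult2b1) and 2 lower, against 20.2% and 4.01% of all genes (24.3% in either direction). The count was 0 without STZ 1, STZ 2 or STZ+AOS 1 and 11 without STZ 3, where 26.4% of all genes were called and Gsto1 (1.58), Mgst1 (1.46), Sult1a1 (1.31) and Ugt2b38 (-1.53) were among them. Without STZ+AOS 3 both calls were lost and 1 other member, Ugt1a7c, was called (-0.58, adjusted p = 0.0492). With the libraries of high Cyp11b1 left out, where STZ+AOS is 1 library, the count was 0, with 0.0789% of all genes called. Summed spermatid markers separated STZ from STZ+AOS and from both transfer groups, and control from AOS. In STZ+AOS against STZ 5 of 5 chromaffin, 3 of 9 adrenal cortex and 1 of 4 fibroblast markers were called higher. Of 13 proximal tubule markers 2 were called lower, with 12 lower and 1 higher by sign. The part of all these markers in the comparisons was not tested.

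STZ against control gave 0 called members by limma, and 0% of all genes were called. At an unadjusted p under 0.05 there were 2 members, and 1.27% of all genes. Of the 41 members 31 were higher in STZ and 10 lower, where 51.3% of all genes were higher. The median difference was 0.13 over the members and 0.0039 over all genes. The smallest p-values belonged to Sult1c2 (0.51), Gstp2 (0.58) and Ugt1a7c (0.29), each with an adjusted p of 0.9996. Groups did not overlap for Sult1c2 and Ugt1a7c, both higher in STZ, against 1.14% of all genes (3.23% in either direction). With control 3 and STZ 1 both left out, 12 members were called, all higher in STZ, and 8.71% of all genes (881 higher and 224 lower). They were Gsta2 (3.86, adjusted p = 0.00213), Ugt1a2 (5.95, 0.0110), Mgst3 (1.24, 0.00308), Gsta3 (1.35, 0.0120), Ugt1a1 (1.96, 0.0192), Sult1a1 (1.35, 0.0272), Gstm5, Ugt2b34, Ugt2b5, Ugt1a10, Mgst1 and Gsto1. These libraries were picked because they stood apart. Control 3 was the highest control for 73.2% of the members and STZ 1 the lowest STZ library for 73.2%. Leaving both out therefore raises STZ over control for most members by the choice itself. The second fit is thus only a description of the remaining samples, and its adjusted p-values do not allow for that choice.

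AOS against control gave 0 called members by limma where 0.071% of all genes were called. At an unadjusted p under 0.05 there were 2 members, and 4.11% of all genes. Gstp3 was higher by 2.74 in the AOS mean but lay both highest and lowest in that group, and Gstp1 and Gstt3 were different by -0.41 and -0.40, each with an adjusted p of 0.817. Groups did not overlap for Gsto2, Mgst1, Sult1a1 and Gsta4, all lower in AOS, against 10.2% of all genes (13.1% in either direction). The median over the members was -0.22, and over all genes -0.095.

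The transfer groups differed from STZ in 0 called members each by limma. Of all genes 0.11% were called for STZ+AOS-FMT and 0.103% for STZ+control-FMT. An unadjusted p under 0.05 was reached by 1 member (3.78% of all genes) for STZ+AOS-FMT and by 2 members (2.22% of all genes) for STZ+control-FMT. Ugt1a6b was higher than in STZ without overlap in both, at 81.9, 85.2 and 82.7 FPKM after the AOS transfer and at 108, 95.25 and 80.7 FPKM after the control transfer, against 63.1, 71.6 and 62.1 FPKM in STZ. Without overlap it was the only member for STZ+AOS-FMT, and Gstt1 was the other for STZ+control-FMT, both higher, against 5.5% (8.4% in either direction) and 4.19% (6.42% in either direction) of all genes. The Ugt1a6b differences were 0.34 and 0.51 with adjusted p-values of 0.9995 and 0.99998. These comparisons share the STZ libraries. The 2 transfers themselves differed in 0 called members and in 0% of all genes, with 1 member and 1.65% of all genes at an unadjusted p under 0.05. Without overlap, 7 members were higher after the AOS transfer and 0 lower, against 6.39% of all genes higher and 11.2% in either direction: Sult1b1, Ugt1a2, Gstm6, Gsta3, Ugt2b34, Ugt1a10 and Ugt1a7c. Ugt2b34, for example, was at 4.75, 3.47 and 4.58 FPKM after the AOS transfer and 2.09, 1.75 and 2.07 FPKM after the control transfer (a difference of 0.82).

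STZ+AOS-FMT against STZ+AOS gave 3 called members (7.32%), where 15.1% of all genes were called (3.99% higher and 11.1% lower). Gstz1 was higher by 0.53 ± 0.12 after the transfer (limma adjusted p = 0.0193) and Ugt1a7c by 0.68 ± 0.14 (0.0173), and Sult2b1 fell by 0.94 (SE 0.29, 0.0428). Ugt1a7c was at 119, 152 and 145 FPKM in STZ+AOS-FMT and at 76.9, 77.5 and 107 FPKM in STZ+AOS. Gstz1 was at 272, 298.5 and 299.95 FPKM after the transfer, above the 165 to 226 FPKM of STZ+AOS. Groups did not overlap for 6 members higher and 12 lower, against 9.49% and 33.2% of all genes (42.7% in either direction). At an unadjusted p under 0.05 there were 12 members, and 36.2% of all genes. Of the 13 proximal tubule markers 7 were called higher as well. Called lower were 9 of 9 adrenal cortex, 5 of 5 chromaffin, 3 of 4 endothelium and 2 of 4 fibroblast markers. So were 2 of 9 tubular injury genes. The part of all these genes in the members' differences was not tested. The count was 0 without STZ+AOS 1, STZ+AOS-FMT 2 or STZ+AOS-FMT 3, and 15 with control 3 and STZ 1 left out, where 33.8% of all genes were called. With the libraries of high Cyp11b1 left out it was 0, but STZ+AOS is then 1 library. This comparison and the 2 others with STZ+AOS share that group's libraries, with the adrenal markers given above.

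Whether AOS acted differently with and without STZ was tested as an interaction, STZ+AOS minus STZ less AOS minus control. Limma called 0 members and 0% of all genes, with 9 members (22%) and 33.4% of all genes at an unadjusted p under 0.05. The smallest adjusted p among members was 0.0771, for Gstz1 (-0.62) and Sult1c2 (-1.01), followed by Ugt1a7c (-0.59, adjusted p = 0.0864). Without STZ 3 the count was 11 members, with 24.0% of all genes called, and without STZ+AOS 2 it was 2, with 6.25% of all genes called (Gstz1, -0.71, and Sult1c2, -1.14).

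Genes that supply or finish the work of the conjugation enzymes were taken from a list of 47, of which 43 were tested. In STZ+AOS against AOS 9 of them were called higher and 17 lower, where 39.3% and 7.18% of all genes were, with a median of 0.0096. Among those lower, Ggt1, which removes the glutamyl residue of glutathione conjugates, fell by 1.08 on the log2 scale (limma adjusted p = 0.0150), Acy1 by 1.22 (0.00640) and Acy3, which deacetylates mercapturates, by 2.53 (0.00897). Acy3 was at 5737, 4455 and 5818 FPKM in AOS and at 417, 1573 and 1164 FPKM in STZ+AOS. Inmt, a methyltransferase, fell by 2.69 (adjusted p = 0.0129). Ephx1, the microsomal epoxide hydrolase, rose by 3.18 (adjusted p = 0.0130), from 19.15, 15.7 and 13.7 FPKM to 143, 194 and 129.75 FPKM. Of the 5 efflux carriers in the list, Abcc4 rose by 1.62 (adjusted p = 0.0193), Abcc3 by 1.34 (0.0286) and Abcc1 by 1.11 (0.0159), Abcg2 fell by 0.36 (0.0238), and Abcc2 was higher by 0.42 and not called (0.111). Of the glutathione synthesis genes, Gss and Gclm fell by 0.38 and 0.30 (adjusted p = 0.0367 and 0.0419), and Gclc was not called. Akr1b7, an aldo-keto reductase also abundant in the adrenal cortex, rose by 6.17. In STZ+AOS-FMT against STZ+AOS 8 of the list were called higher and 2 lower, where 3.99% and 11.1% of all genes were, and in the other comparisons 0 of the list were called.

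A fixed list of regulators, not all of them established for these genes, had 22 tested. In STZ+AOS against AOS 7 were called higher and 1 lower, where 39.3% and 7.18% of all genes were. Higher were Maff (1.75, limma adjusted p = 0.00874) and Mafk (0.68, 0.0129), small Maf partners of Nrf2, its competitor Bach1 (0.49, 0.0192), the aryl hydrocarbon receptor Ahr (0.46, 0.0154) and its partner Arnt (0.51, 0.0156), and Tcf12 and Zeb1. Esr1, the oestrogen receptor, fell by 0.86 (adjusted p = 0.0100). Nfe2l2 itself was at 33.2, 31.45 and 29.6 FPKM in AOS and at 63.2, 50.5 and 26.3 FPKM in STZ+AOS, so its groups overlapped and it was not called. In STZ+AOS-FMT against STZ+AOS 3 of the 22 regulators were called lower, where 11.1% of all genes were. For STZ+AOS against STZ 1 was called higher, where 4.53% of all genes were called in either direction. The other comparisons called 0 of them. Of 14 androgen-responsive kidney genes tested, 10 were called lower and 1 higher in STZ+AOS against AOS, among them Kap (-2.85, adjusted p = 0.0205), and the part of this in the conjugation genes was not tested.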

How the data were processed

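Kidney RNA was extracted with Trizol and a PureLink column kit, per the labels' protocols. The submitters' processing notes name Bowtie 0.12.2 and the build mm10, and the sources used here do not give the counting tool or annotation. The deposited table holds 1 value per gene and library, read here as FPKM values made by the authors. The unit was inferred from the values: value times transcript length summed over genes varied by 0.785% (CV) between libraries, and the plain sum by 5.47%. No read totals were used, so depth is unknown.

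The genes that reached 1 FPKM in 3 or more of 18 libraries were fitted with limma 3.58.1 (R 4.3.3, trend and robust) on log2(FPKM + 1), with 1 mean for each of 6 groups and Benjamini-Hochberg adjustment over all 12682 genes. The scripts were tested on simulated data. Tables and figures were made with Python 3.11.15. In each comparison every member past the threshold is named (at most 15 in full), and the 3 smallest p-values where fewer than 3 passed. Members, gene lists and motifs were chosen with earlier results of these data known, so they are no independent support. A result for 1 listed regulator is not reported here. Locations are from GENCODE M21 and promoters from RefSeq (GRCm38.p6). The alternatives were another pseudocount, filter or scaling, limma without trend and robust, only the groups compared, a replicate block, Cyp11b1 as a covariate, and left-out libraries.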

Additional observations from a re-analysis of the deposited data

How the results depend on the processing

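There were 3 samples a group, and the depth is unknown. Of 44 gene results followed, 23 were called. Of these 23, 19 kept their direction under every alternative run, and 0 were called under every one. The cause of the changes below was not tested.

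With STZ+AOS against AOS the 18 called members became 9 after quantile normalization, 12 with a mean of at least 5 FPKM as the filter, 28 with control 3 and STZ 1 left out, 0 with log2(Cyp11b1 + 1) as a covariate and 3 without libraries above 100 FPKM of Cyp11b1. That last fit, here and below, leaves STZ+AOS as 1 library, assumed to vary like the other groups. Leaving out single libraries gave 7 to 16. With the covariate the difference changed sign for Mgst3 (-0.26), Ugt1a2 (-1.47), Ugt1a1 (-0.39), Ugt3a1 (0.014) and Gsta2 (-0.91).

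With STZ+AOS against STZ the 2 calls became 0 with a pseudocount of 0.1, after quantile normalization, with only the groups compared in the fit, with control 3 and STZ 1 left out, with the covariate, and without the libraries of high Cyp11b1. Leaving out single libraries gave 0 to 11. With STZ+AOS-FMT against STZ+AOS the 3 calls became 9 with only the groups compared, 15 with control 3 and STZ 1 left out, 0 with the covariate and 0 without the libraries of high Cyp11b1, and single libraries gave 0 to 3. With control 3 and STZ 1 left out, STZ against control went from 0 to 12 and STZ+control-FMT against STZ from 0 to 1 (Ugt2b34, -1.21). The interaction, with 0 calls, gave 0 to 11 without single libraries. AOS against control, STZ+AOS-FMT against STZ and the comparison of both transfers had 0 calls under every alternative run.

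Replicate numbers were not taken to pair the samples, since the labels name nothing shared, but a pairing is not excluded. The correlation of deviations between same-numbered samples ran from -0.258 to 0.667 with a median of -0.0038, and 15 of 45 pairs were over 0.1, against 15 of 90 pairs with different numbers. With the replicate block the counts were 17 for STZ+AOS against AOS, 2 for STZ+AOS against STZ and 5 for STZ+AOS-FMT against STZ+AOS.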
